A study of Homo sapiens with 6 samples.

Results

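The 8 genes described here are 6 genes of DNA mismatch repair (MLH3, MSH3, MSH6, PMS1, PMS2 and EXO1), the alkylation repair gene MGMT and the glycosylase gene MBD4. They were taken by name from the 18417 genes that had a probe set annotated to exactly 1 gene symbol, and all 8 were found, each with 1 such probe set. Expression was measured on 3 arrays of a mutant HCT116 line, described by its label as having altered DNA methylation, and on 3 arrays of the parental HCT116 line. HCT116 is an established human colorectal carcinoma cell line, and it is known to be deficient in mismatch repair, a background that both groups share. The labels name neither the mutated gene nor the allele, and they do not say whether the mutant arrays come from separate clones or cultures, so an effect of the mutation cannot be told apart from anything else in which the lines differ. The p-values refer to the spread between these arrays, which may be technical. All values are log2 expression values, so a difference of 1 is a doubling.

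Mismatch repair removes bases that the replication machinery paired wrongly and loops left by slippage in repeats. MutS heterodimers find the error, MSH6 serving in the form that reads mismatched bases and MSH3 in the form that reads larger loops. MutL heterodimers, whose alternative subunits include PMS2, PMS1 and MLH3, act next, PMS2 and MLH3 bearing an endonuclease motif, and the exonuclease EXO1 then removes the strand that holds the error. MGMT takes alkyl groups off guanine in a reaction that uses up the protein, and its promoter is often methylated in colorectal tumours. MBD4 binds methylated CpG sites and removes thymine or uracil paired with guanine there, the product of deamination at CpG.

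MLH3 and MBD4 rose in the mutant line, and the other 6 genes did not pass the test, limma's moderated test with Benjamini-Hochberg adjustment over all 33297 probe sets and a threshold of 0.05. Among all genes 25.9% passed, so 2 of 8 (25%) is a share near that background. In the higher direction 14.6% of all genes passed, and in the lower direction 11.3%. The median difference was 0.01 over the 8 genes and 0.0034 over all genes, and 4 of the 8 differences were above 0 and 4 below. The arrays of both groups did not overlap for 6 of the 8 genes, 3 higher and 3 lower in the mutant line, against 45.8% of all genes (25.3% higher and 20.5% lower).

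**Figure D1:**
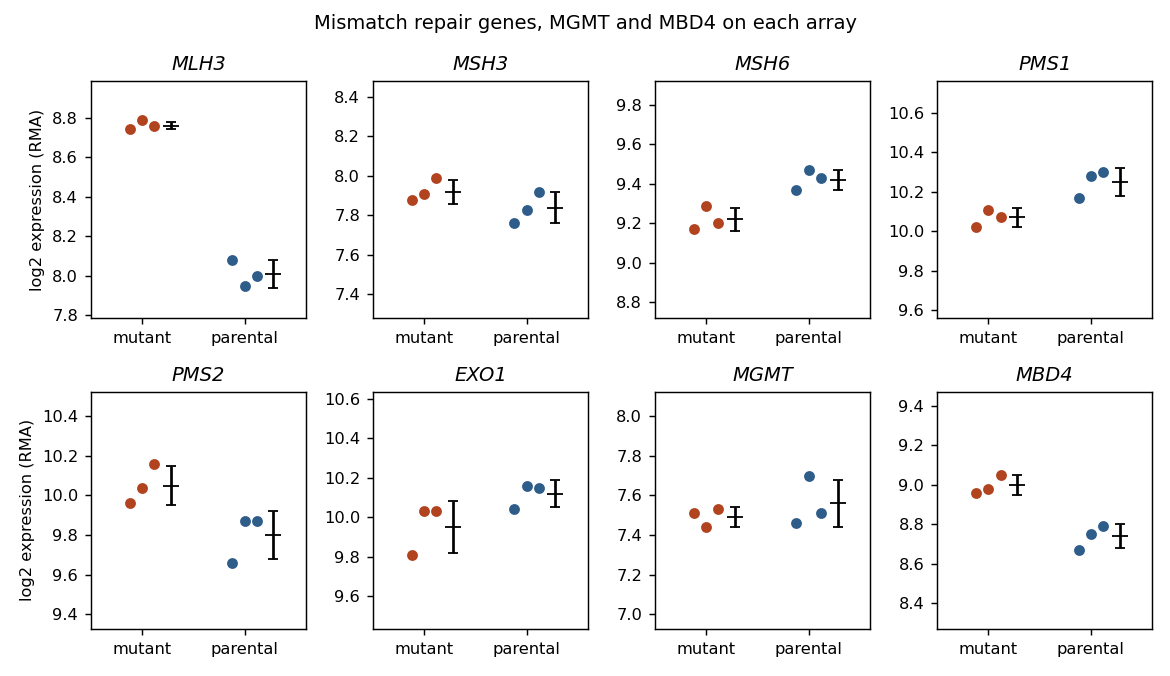
Log2 expression (RMA) of each of the 8 genes on the 3 mutant arrays and the 3 parental arrays. Points are arrays and the black marks are the mean and SD, with every panel spanning the same range of 1.2 log2 units. MLH3 has the widest gap between the groups of the 8 genes (0.66), and the groups overlap for MSH3 and MGMT.

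The stretch before the start of MLH3 and MBD4, the 2 genes that rose, and of MGMT, whose promoter is known for methylation, is printed because the mutant line is labelled with altered DNA methylation and CpG is the site that carries it. DNA methylation itself was not analysed here. Each stretch holds the 250 bases before the start given by RefSeq (GRCh38.p14), 5′ to 3′ on the gene's own strand, with every CpG in capitals.
MLH3, minus strand, chr14:75051468-75051717: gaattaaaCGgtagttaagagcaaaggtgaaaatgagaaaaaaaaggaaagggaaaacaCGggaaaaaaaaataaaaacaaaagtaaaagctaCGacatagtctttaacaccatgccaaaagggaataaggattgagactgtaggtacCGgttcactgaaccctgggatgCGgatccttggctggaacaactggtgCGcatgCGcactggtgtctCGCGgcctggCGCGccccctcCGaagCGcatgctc
MBD4, minus strand, chr3:129439949-129440198: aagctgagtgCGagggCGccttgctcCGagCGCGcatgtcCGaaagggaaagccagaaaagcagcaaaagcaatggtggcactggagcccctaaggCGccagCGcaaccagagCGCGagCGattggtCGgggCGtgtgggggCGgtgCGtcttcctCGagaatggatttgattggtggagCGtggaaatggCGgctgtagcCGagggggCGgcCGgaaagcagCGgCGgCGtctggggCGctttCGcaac
MGMT, plus strand, chr10:129466991-129467240: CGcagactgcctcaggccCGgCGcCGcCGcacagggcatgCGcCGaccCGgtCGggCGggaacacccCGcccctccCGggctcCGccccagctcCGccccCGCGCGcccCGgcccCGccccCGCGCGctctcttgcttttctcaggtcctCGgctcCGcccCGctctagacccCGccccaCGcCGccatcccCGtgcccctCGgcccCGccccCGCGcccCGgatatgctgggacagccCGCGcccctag
The MLH3 stretch has 13 CpG sites, close to the median of 11 over 35116 such stretches in the RefSeq table, and more sites than 53.4% of them. MBD4 has 26 sites, more than 80.4% of the stretches, and MGMT has 36, more than 95.1%. Over the 13 stretches before the starts of all 8 genes, the CpG count ran from 8 (before an EXO1 start) to 36 (MGMT), with 34 before an MSH6 start and 32 before PMS1.

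Among the MutL subunits, MLH3 (probe set 7980246, chromosome 14) had log2 values of 8.74, 8.79 and 8.76 on the mutant arrays, against 8.08, 7.95 and 8.0 on the parental arrays. All 3 mutant arrays lay at least 0.66 above the highest parental array, while arrays of the same line differed by far less. The difference was 0.75 with a standard error of 0.05, a 1.69-fold higher level (95% interval 1.54 to 1.85; limma adjusted p = 0.000419). It exceeded the differences of 98.2% of all genes. The call held under all 18 alternative settings, with differences of 0.72 to 0.79. In RNA from many cells, more RNA per cell and more cells that express the gene cannot be told apart.

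PMS2 (probe set 8138030, chromosome 7), the endonuclease subunit of the main MutL form, had 9.96, 10.04 and 10.16 on the mutant arrays, against 9.66, 9.87 and 9.87 on the parental arrays. The groups were separated by 0.09, and parental replicate 1 stood below the other parental arrays. The difference was 0.25 (95% interval 0.05 to 0.45; limma adjusted p = 0.0921). PMS2 has many near-identical pseudogene copies that can share probes, so its level is uncertain. A further 10 probe sets are annotated to several symbols, with PMS2 or a PMS2 pseudogene among them. They were chosen after their values were seen, and 8 of the 10 list PMS2. Of the 10, 5 passed as higher, with differences of 0.11 to 0.29 over the 10. Among all probe sets 18.5% passed in either direction. Some of the 10 read nearly alike on every array, so they are not 10 separate measurements. The copies with their own probe set, PMS2CL, PMS2P3 and PMS2P1, had differences of 0.21, 0.18 and 0.06 (limma adjusted p = 0.198, 0.0767 and 0.727), named here after their values were seen.

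PMS1 (probe set 8047038, chromosome 2), a MutL subunit with no settled part in mismatch repair, had 10.02, 10.11 and 10.07 on the mutant arrays, against 10.17, 10.28 and 10.30 on the parental arrays. The groups did not overlap but lay only 0.06 apart. The difference was -0.18 (95% interval -0.32 to -0.04; limma adjusted p = 0.0865). PMS1 passed in 5 of 18 alternatives and PMS2 in 4 of 18. Of the 3 MutL subunits 1 rose and 2 did not pass, with differences on either side of 0. Among all genes 14.6% passed as higher and 11.3% as lower, so a count over 3 genes says little.

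Among the MutS subunits, MSH6 (probe set 8041888, chromosome 2) had 9.17, 9.29 and 9.20 on the mutant arrays, against 9.37, 9.47 and 9.43 on the parental arrays. Every mutant array was below every parental array, by 0.08 at the closest. The difference was -0.20, or 0.869 of the parental level (95% interval 0.79 to 0.957; limma adjusted p = 0.058). It passed in 7 of 18 alternatives. MSH3 (probe set 8106633, chromosome 5) had 7.88, 7.91 and 7.99 on the mutant arrays, against 7.76, 7.83 and 7.92 on the parental arrays. The groups overlapped, and the difference of 0.08 had an interval of -0.07 to 0.24 (limma adjusted p = 0.455), which leaves room for no change and for a level up to 1.18-fold higher.

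EXO1 (probe set 7910997, chromosome 1) had 9.81, 10.03 and 10.03 on the mutant arrays, against 10.04, 10.16 and 10.15 on the parental arrays. The mutant values ended 0.01 below the lowest parental value, and mutant replicate 1 lay apart from the other mutant arrays. The difference was -0.16 (95% interval -0.35 to 0.03; limma adjusted p = 0.239).

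MGMT (probe set 7931379, chromosome 10) had 7.51, 7.44 and 7.53 on the mutant arrays, against 7.46, 7.70 and 7.51 on the parental arrays. The groups overlapped, with parental replicate 2 as the highest array. The difference was -0.06 (95% interval -0.25 to 0.12; limma adjusted p = 0.655). On the linear scale the interval runs from 0.843 to 1.09 of the parental level, so larger changes of this probe set in either direction lie outside it.

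MBD4 (probe set 8090577, chromosome 3) had 8.96, 8.98 and 9.05 on the mutant arrays, against 8.67, 8.75 and 8.79 on the parental arrays. The mutant arrays lay at least 0.17 above the parental arrays. The difference was 0.26 with a standard error of 0.06, a 1.2-fold higher level (95% interval 1.09 to 1.32; limma adjusted p = 0.0242). Among all genes 85.9% had a lower difference. The call was lost when any array other than parental replicate 3 was left out, with limma adjusted p of 0.0548, 0.0735 and 0.0745 without mutant replicates 1, 2 and 3, and 0.0667 and 0.076 without parental replicates 1 and 2.

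**Figure D2:**
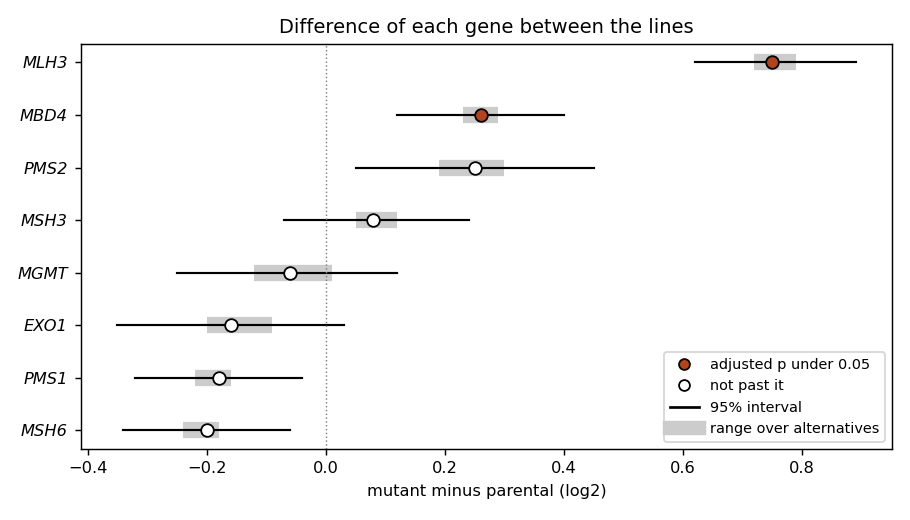
Difference in log2 expression, mutant minus parental, for each gene, with its 95% interval (line) and the range over 18 alternative settings (grey bar). Filled points passed an adjusted p under 0.05. MLH3 stands at 0.75, MBD4 at 0.26, and the remaining 6 lie between -0.20 and 0.25.

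**Figure D3:**
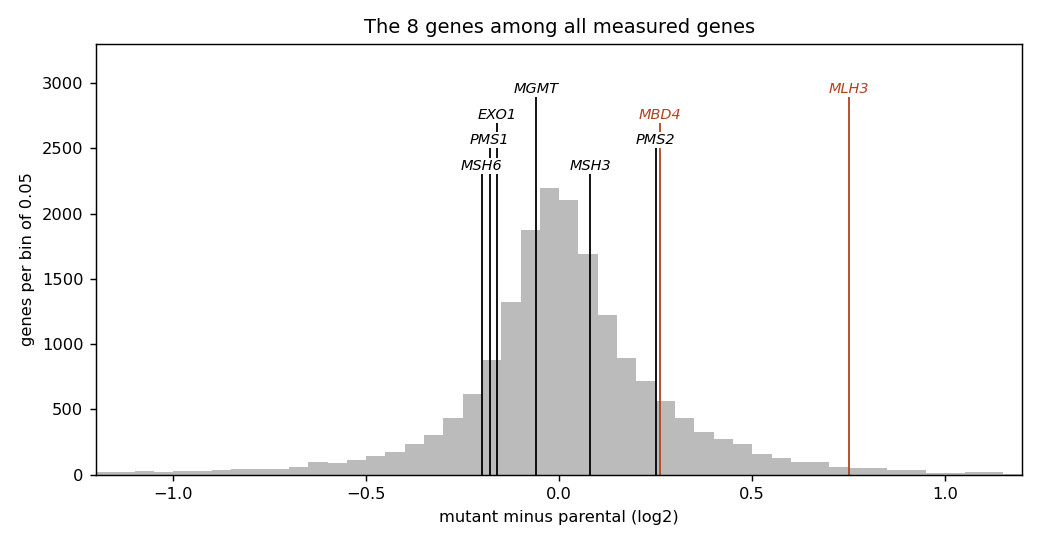
Number of genes per bin of 0.05 in the log2 difference, mutant minus parental, over the 18417 genes, with a vertical line for each of the 8 genes (red: adjusted p under 0.05). MLH3 lies above 98.2% of all genes, whereas the other 7 lie above 15% (MSH6) to 85.9% (MBD4) of them.

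Genes next to the 8 on the chromosome were read beside them. MBD4 and IFT122, which encodes a part of the intraflagellar transport machinery, start 276 bases apart on opposite strands in RefSeq. IFT122 had 8.67, 8.62 and 8.60 on the mutant arrays, against 7.97, 7.81 and 8.10 on the parental arrays. It rose by 0.67 (limma adjusted p = 0.00275), so both genes of this divergent pair were higher in the mutant line. PMS1 and ORMDL1, a regulator of sphingolipid synthesis, start 111 bases apart on opposite strands. ORMDL1 rose by 0.31 (limma adjusted p = 0.0105), while PMS1 had a difference of -0.18. PMS2 and AIMP2 start 166 bases apart on opposite strands, but AIMP2 had no probe set with a single symbol.

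For MLH3 the nearest measured genes were EIF2B2, a translation initiation factor subunit, at 0.03 (limma adjusted p = 0.8) and ACYP1, an acylphosphatase, which rose by 0.21 (limma adjusted p = 0.0378). The call of ACYP1 was lost without any given array (limma adjusted p of 0.0555 to 0.118). Over the 10 measured genes on either side of MLH3, 7 rose, 4 fell and the others did not pass. Among all genes 14.6% rose and 11.3% fell by this test. The differences of these neighbours ran from -0.56 to 0.71 with a median of 0.02, against 0.75 for MLH3. Beside MGMT, the transcription factor gene EBF3 rose by 0.36 (limma adjusted p = 0.02; 0.066 to 0.069 without mutant replicate 1 or 3 or parental replicate 1 or 3), and the proliferation gene MKI67 had 0.16 (limma adjusted p = 0.0634).

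The other nearest measured genes did not pass. They were ANKRD34B (-0.01) and RASGRF2 (0.05) beside MSH3, KCNK12 (-0.02) and FBXO11 (0.06) beside MSH6, AKAP19 (0.18) beside PMS1, RNF216 (-0.04) and EIF2AK1 (0.13) beside PMS2, WDR64 (-0.09) and MAP1LC3C (0.26) beside EXO1, and EFCAB12 (0.37) beside MBD4. Over 20 neighbouring genes each, the medians around the 8 genes ran from -0.01 around PMS1 to 0.09 around MSH3. Around PMS1 3 rose and 7 fell, and around MSH3 7 rose and 1 fell. The shares over all genes were 14.6% higher and 11.3% lower.

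**Figure D4:**
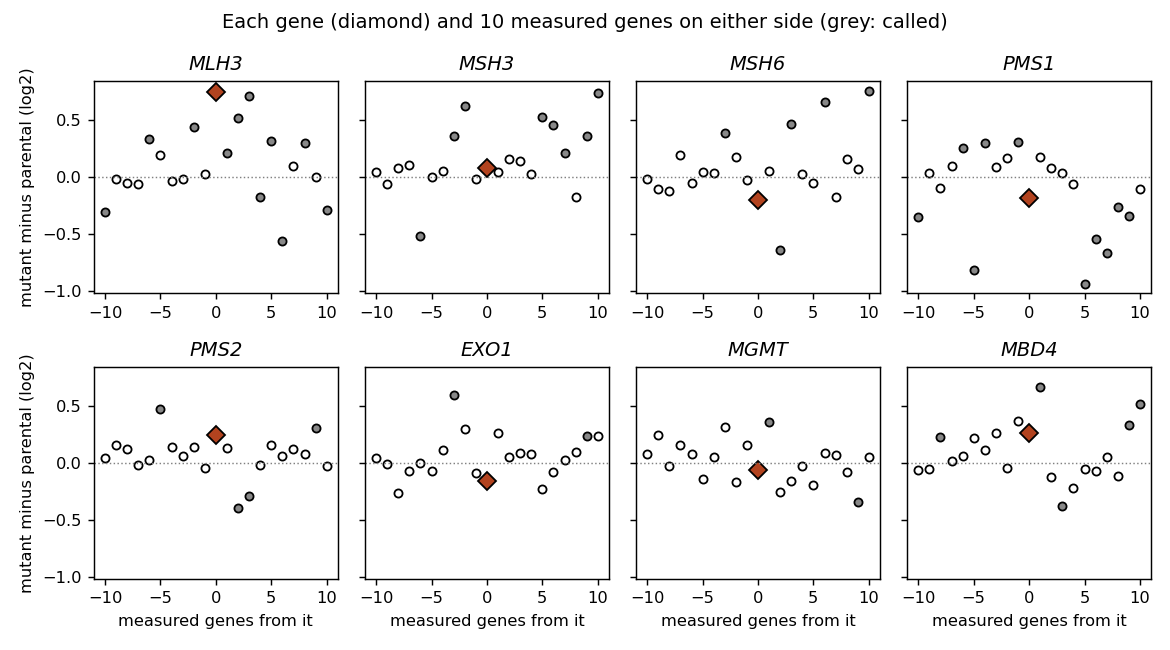
Log2 difference, mutant minus parental, of each of the 8 genes (diamond) and of the 10 measured genes on either side, in chromosome order (circles, grey where the adjusted p is under 0.05). Around MLH3 none of the 20 neighbours exceeds it, and IFT122 at 0.67 is the circle next to MBD4.

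Promoter motifs were searched on both strands of the 250 bases before each of the 13 RefSeq starts of the 8 genes, as a description of the letters there. The core of the NRF1 motif, CGCATGCG, matched once before MLH3 and before none of the other 7 genes, and 1.73% of all stretches hold it. The E2F motifs TTTCGCGC and TTTGGCGC each matched before MSH3 alone among the 8 genes (0.439% and 0.55% of all stretches), where the matches overlap each other. GC boxes (GGGCGG, in 42.6% of all stretches) numbered 8 before MGMT, 1 to 5 before the starts of MSH6, 4 before MSH3, 2 before MBD4 and before each PMS2 start, 1 before PMS1, 0 to 1 before the starts of EXO1 and 0 before MLH3. The cyclic AMP response element TGACGTCA (1.65% of all stretches) matched before PMS2 and EXO1, and CCAAT (32%) before MSH6, PMS1, PMS2 and MBD4. The ETS motif CCGGAAGT (3.42%) and TATAAA (10.7%) matched before none of the 8.

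Of 17 measured genes listed as partners of mismatch repair, mostly of excision and resynthesis, 6 fell, 1 rose and 10 did not pass. Among all genes 11.3% passed as lower and 14.6% as higher. The median difference was -0.08 over the 17, against 0.0034 over all genes. HMGB1, on the list as well, had no probe set with a single symbol. The clamp loader genes RFC5, RFC2 and RFC1, the DNA polymerase delta subunit genes POLD4 and POLD2, and the DNA ligase gene LIG1 fell. POLD4 had 8.38, 8.31 and 8.29 on the mutant arrays, against 8.94, 8.94 and 9.01 on the parental arrays, and fell by 0.64 (limma adjusted p = 0.000632). RFC5 fell by 0.46 (limma adjusted p = 0.00611). The gene that rose, SETD2, acts before these steps, through a histone mark that recruits MSH6 to chromatin, and it rose by 0.34 (limma adjusted p = 0.00833). With any array left out, 2 to 3 genes passed as lower in place of 6, as the calls of LIG1 and POLD2 were lost each time, and those of RFC1 and RFC2 in all but 1 case each.

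Excision and replication genes follow the cell cycle, and a list of 23 S phase and proliferation genes is given beside them. Of these, 10 fell, 4 rose and 9 did not pass, with a median of -0.19. The shares over all genes were 11.3% lower and 14.6% higher. The helicase subunit gene MCM4 (-0.88, limma adjusted p = 0.000254) and the thymidine kinase gene TK1 (-0.88, limma adjusted p = 0.000287) fell, whereas TOP2A (0.33, limma adjusted p = 0.00562) and the cyclin gene CCNE1 (0.27, limma adjusted p = 0.0367) rose. Without any given array 1 to 2 passed as higher and 7 to 8 as lower, and CCNE1 had limma adjusted p of 0.0999 to 0.118 without mutant replicate 2 or 3 or parental replicate 1 or 2. The part of cell cycle state in the values of EXO1 and MSH6 was not tested.

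MGMT and MBD4 were set beside other genes of base damage repair, most of which act on other lesions. Beside the counts below, 11.3% of all genes passed as lower and 14.6% as higher. The alkylation repair genes ALKBH2, ALKBH3 and MPG gave 0 calls of 3 in limma, and 0 at an unadjusted p under 0.05, with differences of -0.04 to 0.12. Of 9 other base excision glycosylase genes, 2 fell and 7 did not pass, with a median of -0.02. NTHL1 and NEIL2, which remove oxidised bases, both changed by -0.24 (limma adjusted p = 0.0361 and 0.0336), and both calls were lost without any given array (0.0555 to 0.103 for NTHL1 and 0.0575 to 0.103 for NEIL2). Of 5 measured genes of the later steps, PARP1, a sensor of strand breaks, fell by 0.44 (limma adjusted p = 0.00164) and XRCC1, a repair scaffold, rose by 0.19 (limma adjusted p = 0.0287; 0.067 to 0.0987 with an array left out), with a median of -0.09. MSH4, a meiotic MutS homolog, had values of 3.91 to 4.28 over all arrays and a difference of -0.03 (limma adjusted p = 0.894), and MSH5 had no such probe set.

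**Figure D5:**
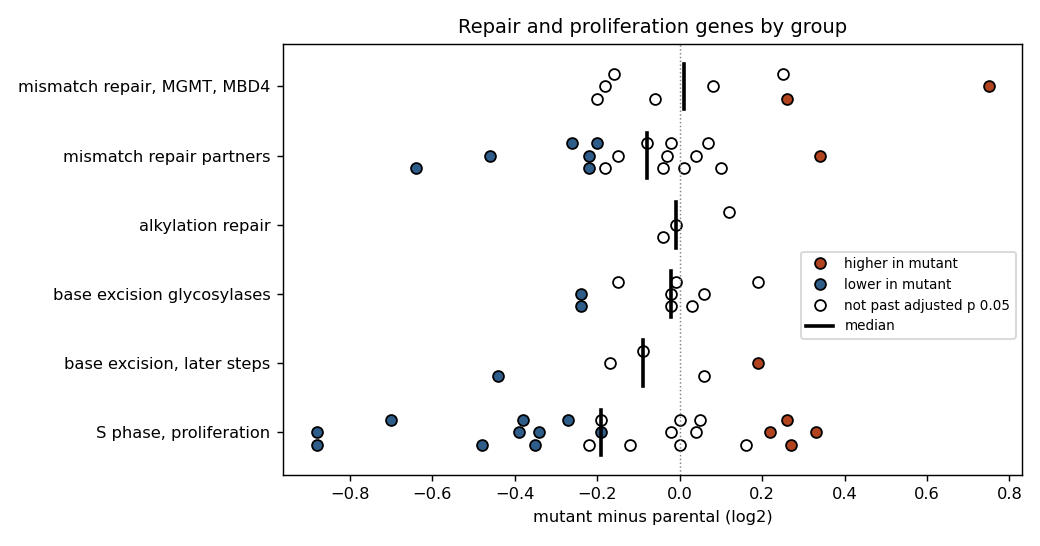
Log2 difference, mutant minus parental, of each gene by repair step (points; filled where the adjusted p is under 0.05, red higher and blue lower in mutant) with the median of each group as a bar. The mismatch repair partner group has 6 filled blue points of 17 and the 8 genes have 2 filled red points. Among all genes 11.3% passed as lower and 14.6% as higher.

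By distance over the 6 arrays, after each gene was centred on its own mean, the patterns most like that of MLH3 among all genes were those of AK1, an adenylate kinase gene (distance 0.007), and SEC16A, a gene of vesicle export (distance 0.082). Their differences were both 0.76, and closeness to the 0.75 of MLH3 follows from a choice by distance. Both genes lie on chromosome 9 and MLH3 on chromosome 14, and a link among them was not tested.

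Arrays of the same line correlated at 0.995 to 0.996 over all probe sets and arrays of different lines at 0.988 to 0.989, and array medians lay between 6.88 and 6.93. Of 8 epithelial markers, 4 (CDH1, KRT18, KRT8 and KRT19) were lower in the mutant line and the rest did not pass. For these and the marker counts below, the shares over all genes were 11.3% lower and 14.6% higher. EPCAM read 12.11 to 12.39 and CDX2 8.41 to 8.56 over all arrays, while VIL1 read only 5.66 to 5.83. The 4 measured leukocyte markers stayed between 3.56 and 6.08, with PTPRC at 3.56 to 3.90, and limma called 0 of the 4 (1 at an unadjusted p under 0.05). Of 5 fibroblast markers 1, PDGFRB, was higher (0.27, limma adjusted p = 0.0322; 0.0469 to 0.0968 with an array left out, past the threshold only without parental replicate 2), and of 4 endothelial markers limma called 0 (0 at an unadjusted p under 0.05). The fibroblast markers read 2.97 to 8.35 over all arrays, with COL1A1 at 8.12 to 8.35, and the endothelial markers 4.85 to 6.48. Summed over the list, the leukocyte markers gave 18.54 to 18.95 on mutant arrays and 18.88 to 19.12 on parental arrays. The part of other cells in the results was not tested.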

How the data were processed

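Total RNA (100 ng) was labelled with biotin and measured on Affymetrix whole-transcript arrays, per the labels' protocols. The deposited log2 values were made by the authors using Partek and RMA, as the submitters' processing notes state. Tool versions: not given in the sources used here. By design, RMA makes the distributions of all arrays alike, which removes differences in total RNA per cell, and it compresses changes of dim probe sets. Arrays have no sequencing depth, and precision is limited by having 3 a group.

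On each of the 6 arrays, 33297 probe sets have a value. Platform annotation gives 1 symbol to 19460, several to 1754 and none to 12083. A gene with several single-symbol probe sets was represented by that of the highest mean. Differences were fitted with limma 3.58.1 (lmFit, eBayes, two-sided; R 4.3.3) and adjusted over all probe sets. The fit was tested on simulated data. Python 3.11.15 and pandas 2.3.3 served the rest. Gene neighbours and starts came from RefSeq (GRCh38.p14). The 95% intervals are not adjusted for multiple testing. Members and gene lists were chosen with earlier results of these data known. The rule names the 8 genes, their neighbours, up to 2 called genes per list and direction, and the 2 genes nearest in pattern to the member with the largest called difference. RFC1, RFC2, POLD2, LIG1, the uncalled alkylation genes and the markers were named outside it, to complete short counts. Alternatives covered renormalization, array medians, dim filters, array weights, the variance model, a block for the replicate number, features tested, a minimum fold and each array left out. Of the unused columns there were 0.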

Additional observations from a re-analysis of the deposited data

How the results depend on the processing

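The alternatives were run for 107 genes, namely the 8, their neighbours, all measured genes of the lists, the PMS2 copies and the genes nearest in pattern, and in 0 of them did a call change direction. The number of the 8 genes called was 5 with an intensity trend, 5 with probe sets of a mean log2 of at least 7, 5 with single-symbol probe sets only, 5 with the mean of each gene's probe sets and 4 after a further quantile normalization, against 2 as reported. MSH6, PMS1 and PMS2 were the added calls, except that PMS2 did not pass after the further quantile normalization. Among all genes 5711, 5606, 5990, 6031 and 5032 passed in these settings, in the same order, against 4773 of 18417 as reported. With the filter at 7, fewer than 18417 genes were tested. The share of the 8 genes called, beside that of all genes, thus depends on the setting. The single-symbol, bright-only and gene-mean settings test fewer features by construction, and whether that raised their counts was not tested. For the trend and the normalization the cause was not tested either. Requiring a fold of 1.2 in the test left 1 of the 8 genes, 1743 of 6166 probe sets and 1442 of 4773 genes, since that test is stricter by construction. With each array left out in turn, 1 to 2 of the 8 genes passed, as did 4037 to 4644 probe sets and 3198 to 3627 genes, with the lowest counts without mutant replicate 2 (4037 probe sets) and parental replicate 2 (4109). With the replicate number as a block, 1 of the 8 genes passed, MLH3, against 3395 of all genes. MBD4 had a limma adjusted p of 0.0507 with that block. The labels do not say whether the numbers pair the arrays. Deviations of same-numbered arrays from their group means correlated at 0.043, -0.013 and 0.003. For differently numbered arrays the correlations ran from -0.064 to 0.06. These values show no strong shared deviation, but they cannot tell whether same-numbered arrays were handled together. Signal over background could not be read from these values, which carry no detection calls.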
